A study of Homo sapiens with 16 samples.

Results

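The 45 genes described here encode the working parts of the lysosome and of the autophagy pathway that feeds it. They were taken by gene name and sorted into 8 roles. The list holds 3 transcription factors of the TFEB family, 9 subunits and partners of the vacuolar proton pump (V-ATPase), 7 proteases, 7 glycosidases, 4 lipid hydrolases, 3 luminal cofactors, 7 membrane proteins and 5 autophagy genes. All 45 were matched by identifier among the 58676 gene identifiers that were counted, and all 45 were expressed highly enough to be tested in both cell lines.

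RNA was sequenced from A549 cells, a lung cancer line, and SUM159 cells, a triple negative breast cancer line. Each line was left untreated (UT), or treated for 16 hours with 2 µM palbociclib (PD), an inhibitor of the cell cycle kinases CDK4 and CDK6, with 3 µM indisulam (IN), a molecular glue that leads to degradation of the splicing factor RBM39, or with both at these doses (P+I). There were 2 libraries in each of the 8 groups, 16 in all, which the study describes as technical duplicates, so the p-values measure the spread between these libraries and not between cultures. A549 was grown in RPMI and SUM159 in DMEM/F12 with insulin and hydrocortisone, so line and medium cannot be told apart.

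Gene counts ranged from 18306636 to 34075588 per library, for which 3 counts are worth 0.0880 to 0.164 CPM (counts of a gene scaled to a common library total). Levels below are CPM after the composition correction of edgeR (TMM), except the marker genes of this paragraph, which are CPM of total counts. They are shares of each library, in which fewer cells of a kind and less RNA per cell cannot be told apart. The untreated A549 libraries held the epithelial keratin KRT8 at 5120 and 4974 CPM and EPCAM at 25.3 and 23.6 CPM, and the untreated SUM159 libraries held the mesenchymal marker VIM at 3906 and 3777 CPM, with EPCAM under 1 CPM in every library and the hormone receptors ESR1 and PGR under 1 CPM. Of 3 fibroblast markers, all were above 1 CPM in SUM159, summing to 844 and 862 CPM untreated, 900.5 and 968.5 under palbociclib, 794 and 789 under indisulam and 953 and 942 under both, and 1 of 3 was above 1 CPM in A549, summing to at most 4.343 CPM. Of 3 endothelial markers, PECAM1 alone was above 1 CPM in SUM159, and their sum went from 18.55 and 16.73 CPM untreated to 39.12 and 41.04 CPM under both drugs. The TMM factors were 0.943 and 0.953 in untreated SUM159 and 1.053 and 1.049 under both drugs. Scaling by them narrows both differences, so the small fibroblast rise under both drugs rests on the scaling. Of 4 leukocyte markers, CD14 alone was above 1 CPM in A549, at 4.971 to 8.828 CPM. PTPRC was above 1 CPM in SUM159, at 2.992 to 4.623 CPM, as was CD14 in its treated groups. The 4 markers summed to at most 9.305 CPM in any library, with CD3E at 0 to 0.04547 CPM. The part of such transcripts in the lysosomal values was not tested.

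Lysosomes are acidic organelles in which hydrolases break down proteins, glycans and lipids delivered by endocytosis and autophagy. The V-ATPase pumps protons into the lumen, cofactors present lipids to the enzymes, and membrane proteins keep the enzymes in and carry products out. TFEB, TFE3 and MITF are related transcription factors that bind E-box elements in promoters of many of these genes, and their entry into the nucleus is held back by mTORC1 at the lysosomal surface. Senescent cells are commonly recognised by senescence-associated β-galactosidase staining, an activity of the lysosomal enzyme encoded by GLB1, and the study used that stain to score senescence.

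Promoters with the core E-box CACGTG were read from RefSeq promoters (build GRCh38.p14, 250 bases before to 50 bases after each start site), in which 33 of the 45 genes had an entry. They are shown because this element is where the TFEB family is known to bind. CACGTG, which reads the same on both strands, was present in 9 of the 33 genes (27.3%) and in 8.77% of the 27305 genes with a promoter entry. The longer TCACGTG, searched on both strands, was present in 8 of the 33 (24.2%) and in 4.49% of all genes, and TCACGTGA, which contains both shorter forms, in 6 (18.2%) and in 1.18% of all genes. The 30 bases around the first match in each of the 9 genes follow, with the core in capitals.
NEU1, chr6:31862930-31862959, minus strand: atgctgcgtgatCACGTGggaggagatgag
CTSD, chr11:1763957-1763986, minus strand: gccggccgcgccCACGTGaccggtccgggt
CD63, chr12:55729172-55729201, minus strand: ccgggtaggggcCACGTGgccctggccggg
LAMP1, chr13:113297035-113297064, plus strand: accaggccgggtCACGTGggtccagggtca
CLN3, chr16:28492087-28492116, minus strand: aaaacctctgagCACGTGatgggggaacac
ATP6V0D1, chr16:67481199-67481228, minus strand: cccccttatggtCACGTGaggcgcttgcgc
GAA, chr17:80101493-80101522, plus strand: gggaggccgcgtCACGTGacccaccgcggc
MCOLN1, chr19:7522571-7522600, plus strand: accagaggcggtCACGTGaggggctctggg
CTSA, chr20:45891281-45891310, plus strand: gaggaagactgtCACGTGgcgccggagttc
The core began 76 bases before the annotated start of GAA, 59 before ATP6V0D1, 47 before CTSD, 42 before CTSA, 41 before MCOLN1, 126 before NEU1, 180 before CD63 and 192 before LAMP1, and the LAMP1 window held 6 copies. A match describes these letters only, and binding was not measured here.

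With palbociclib most of the list moved upward in both lines. In A549, 32 of the 45 genes passed the threshold, an edgeR quasi-likelihood adjusted p under 0.05 after Benjamini-Hochberg adjustment, where 43.2% of the 15744 tested genes did so. Of these, 29 were higher and 3 lower, against 22% and 21.1% of all genes. In SUM159, 31 genes passed, where 54.5% of the 16080 tested genes did. Of these, 27 were higher and 4 lower, against 25.5% and 29% of all genes, and scaling by total counts instead of TMM gave 35 higher and 1 lower. The median log2 change of the 45 genes was 0.25 in A549 and 0.17 in SUM159. Most changes were modest, since 9 genes in A549 and 6 in SUM159 also changed by at least 0.5 on the log2 scale, where 16.2% and 22.5% of all genes did. WIPI1 and GABARAPL1, both autophagy genes, led the rises in both lines, and GUSB, the β-glucuronidase, gave the largest fall in both lines once CTSH, at under 5 CPM in SUM159, is set aside.

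With indisulam the list split. In A549, 17 genes were higher and 12 lower, 29 in all, where 49.2% of all genes passed (23.3% higher and 25.9% lower). In SUM159, 8 were higher and 16 lower, 24 in all, where 46.9% of all genes passed (21.9% higher and 24.9% lower). Under total-count scaling the split was 13 higher and 13 lower. The median log2 change of the 45 genes was 0.12 in A549 and −0.08 in SUM159. GABARAPL1, TFE3, GRN and ATP6V1C1 rose in both lines, and SCARB2, LIPA, WIPI1, ASAH1 and ATP6V0A1 fell in both.

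With the combination, 34 genes passed in A549, 26 higher and 8 lower, where 57.8% of all genes passed (27.4% higher and 30.4% lower). In SUM159, 32 passed, 20 higher and 12 lower, where 65.3% of all genes passed (32.2% higher and 33.1% lower). Under total-count scaling the split was 29 higher and 6 lower. Total-count scaling moved the median log2 change of all genes by 0.148 in this comparison and by 0.105 in SUM159 with palbociclib, its largest shifts, so smaller SUM159 changes rest on the scaling. The 45 genes together made up 0.468% of the gene counts in untreated A549 and 0.615% in the combination, and 0.477% and 0.559% in SUM159. On the TMM scale their summed level was higher than untreated by 19.0% with palbociclib, 9.29% with indisulam and 23.7% with the combination in A549. In SUM159 it differed by 12.02%, −4.42% and 5.75%. Scaled by total counts the same differences were 24.04%, 11.5% and 31.4% in A549 and 20.5%, −0.779% and 17.2% in SUM159. These sums weigh toward the highest genes. In A549 those were SQSTM1, PSAP and CD63, at means of 1138, 838 and 493 CPM over its 8 libraries. In SUM159 they were PSAP, CTSB and LAMP2, at 533, 430 and 348 CPM. The heat map of all genes by role shows these patterns side by side.

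**Figure D1:**
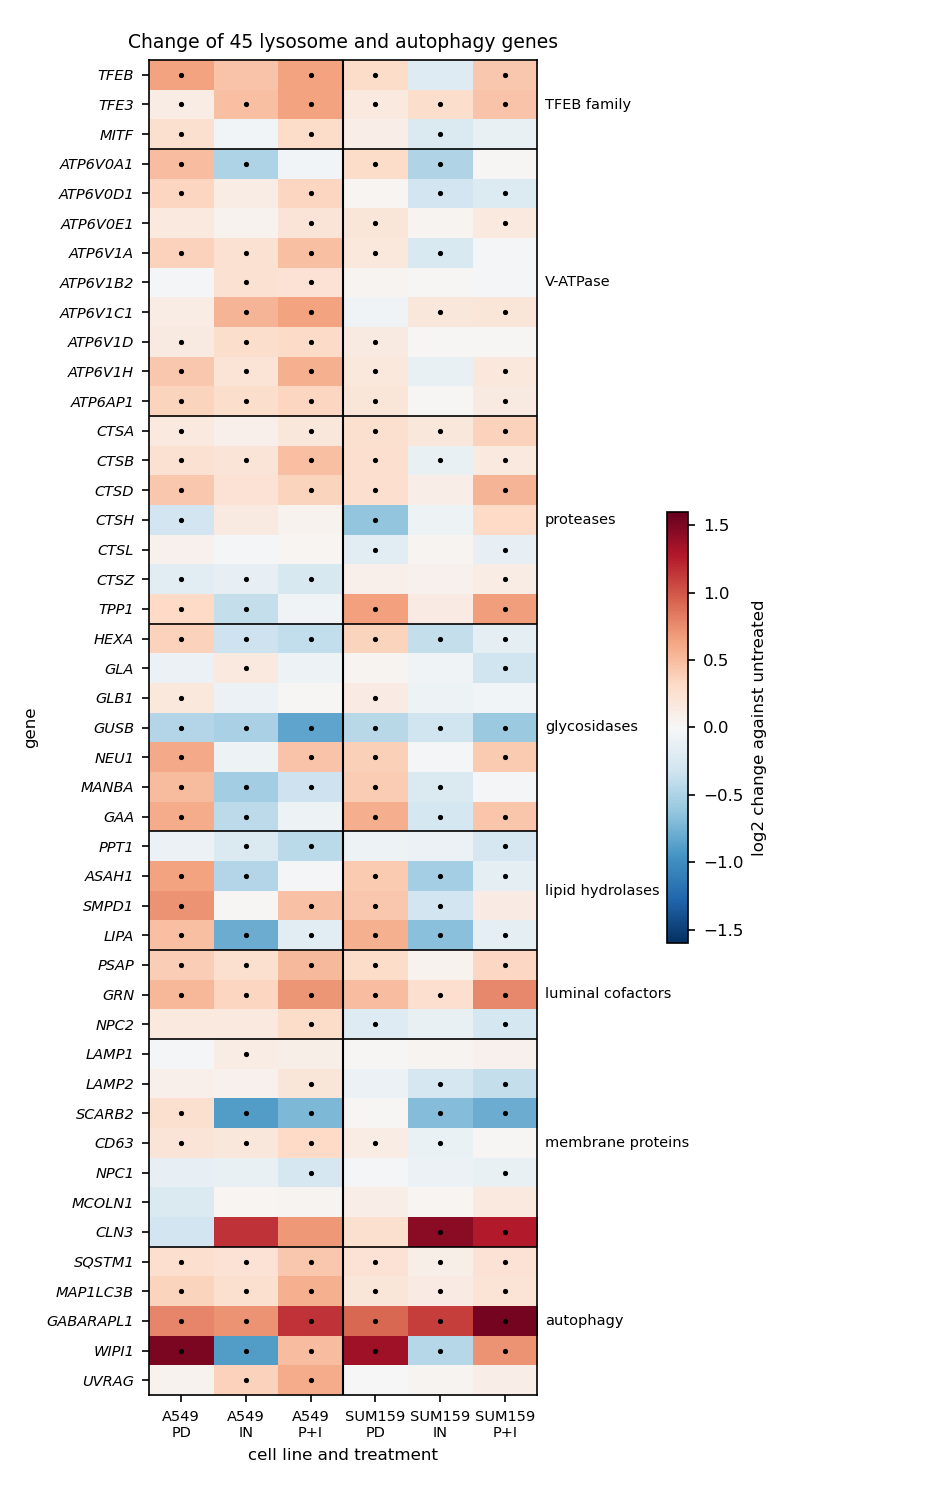
Heat map of the log2 change against untreated cells for each of the 45 genes (rows, grouped by role) in A549 and SUM159 treated with palbociclib (PD), indisulam (IN) or both (P+I). Red is higher, blue is lower, and a dot marks an edgeR adjusted p under 0.05. The glycosidase and lipid hydrolase rows are mostly red with palbociclib and mostly blue with indisulam, WIPI1 is the deepest red with palbociclib (1.51 in A549, 1.36 in SUM159), and GABARAPL1 is red in every column.

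The counts by role below are small and are to be read beside the shares of all genes given above for the same comparisons. The transcription factors of the TFEB family rose with palbociclib in A549 (3 of 3), and 2 of 3 rose in SUM159. In A549, TFE3 was at 101 and 99.8 CPM in the untreated libraries, 109 and 109 under palbociclib, 141 and 141 under indisulam and 162 and 154 under both drugs. In SUM159, TFE3 was at 133 and 129.8 CPM in the untreated libraries, 149 and 144 under palbociclib, 156 and 162 under indisulam and 179 and 182 under both drugs. The untreated libraries were the lowest in both lines and the combination libraries the highest, with no overlap. The log2 change in the combination was 0.65 ± 0.04 (SE, edgeR adjusted p = 1.03e-08) in A549 and 0.46 ± 0.04 (SE, edgeR adjusted p = 1.6e-08) in SUM159. With indisulam alone it was 0.49 ± 0.04 (SE, edgeR adjusted p = 5.4e-07) in A549 and 0.28 ± 0.04 (SE, edgeR adjusted p = 2.05e-05) in SUM159. The rise with palbociclib alone was small, 0.12 ± 0.04 (SE, edgeR adjusted p = 0.0414) in A549 and 0.16 ± 0.04 (SE, edgeR adjusted p = 0.00205) in SUM159, and the A549 call was lost when any 1 of the 8 A549 libraries was left out (edgeR adjusted p from 0.0711 to 0.203).

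TFEB, for which the family is named, was below 13 CPM in every library. In A549, TFEB was at 4.599 and 5.13 CPM in the untreated libraries, 6.65 and 8.24 under palbociclib, 6.12 and 7.17 under indisulam and 8.88 and 6.23 under both drugs. In SUM159, TFEB was at 9.36 and 9.004 CPM in the untreated libraries, 9.98 and 12.4 under palbociclib, 8.06 and 7.802 under indisulam and 12.3 and 12.5 under both drugs. Every palbociclib and combination library lay above the untreated libraries of its line, and the gap between replicates was widest in the A549 combination libraries. The rise with palbociclib was 0.64 ± 0.18 (SE, edgeR adjusted p = 0.00912) in A549, and it fell to 0.56 (edgeR adjusted p = 0.0869) without untreated replicate 1 and to 0.45 (edgeR adjusted p = 0.150) without palbociclib replicate 2. In SUM159 it was 0.30 ± 0.11 (SE, edgeR adjusted p = 0.0261), a call lost with DESeq2 (0.30, adjusted p = 0.101). That call was also lost without palbociclib replicate 2 (0.12), untreated replicate 1 (0.33) or untreated replicate 2 (0.27). In the combination TFEB was higher by 0.43 ± 0.11 (SE, edgeR adjusted p = 0.00177) in SUM159, a call kept in every alternative. In A549 it was higher by 0.64 ± 0.18 (SE, edgeR adjusted p = 0.00785), and that call was lost without untreated replicate 1 (0.56, edgeR adjusted p = 0.0665) or combination replicate 1 (0.36, edgeR adjusted p = 0.102). The indisulam values, 0.45 ± 0.18 (SE, edgeR adjusted p = 0.0565) in A549 and −0.21 ± 0.12 (SE, edgeR adjusted p = 0.149) in SUM159, did not pass, although the A549 value passed without combination replicate 1 (0.43, edgeR adjusted p = 0.0182) or replicate 2 (0.43, edgeR adjusted p = 0.0178).

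MITF was measured over all its isoforms together. In A549, MITF was at 53.1 and 55.01 CPM in the untreated libraries, 63.8 and 64.8 under palbociclib, 53.8 and 51.1 under indisulam and 67.3 and 65.7 under both drugs. In SUM159, MITF was at 35.7 and 36.2 CPM in the untreated libraries, 40.7 and 36.8 under palbociclib, 30.7 and 30.8 under indisulam and 33.1 and 32.8 under both drugs. In A549 the 4 libraries that received palbociclib were the 4 highest. MITF rose there by 0.25 ± 0.05 (SE, edgeR adjusted p = 0.00124) with palbociclib and by 0.30 ± 0.05 (SE, edgeR adjusted p = 0.000195) with the combination, and the indisulam value was −0.04 ± 0.05 (SE, edgeR adjusted p = 0.53). In SUM159 it changed with indisulam by −0.23 ± 0.06 (SE, edgeR adjusted p = 0.00654). The other SUM159 values were 0.11 ± 0.06 (SE, edgeR adjusted p = 0.144) with palbociclib, which passed under total-count scaling (0.21, edgeR adjusted p = 0.00653), with at least 10 counts in every library (0.14, edgeR adjusted p = 0.0492) and without palbociclib replicate 2 (0.18, edgeR adjusted p = 0.0221), and −0.12 ± 0.06 (SE, edgeR adjusted p = 0.0796) with the combination, which passed without palbociclib replicate 1 (−0.13, edgeR adjusted p = 0.0413) or replicate 2 (−0.13, edgeR adjusted p = 0.0422) and was 0.0233 (edgeR adjusted p = 0.753) under total-count scaling.

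Most of the 9 proton pump genes rose with palbociclib in both lines, and with indisulam more rose in A549 than in SUM159. In A549, 6 of the 9 rose with palbociclib and none fell, 6 rose and 1 fell with indisulam, and 8 rose and none fell with the combination. In SUM159, 6 rose and none fell with palbociclib, 1 rose and 3 fell with indisulam, and 4 rose and 1 fell with the combination. Some of these rises were lost in at least 1 alternative. In SUM159 they were ATP6V1A, ATP6V1D and ATP6V1H with palbociclib, and ATP6V0E1 and ATP6V1H with the combination. In A549 they were ATP6V1D with palbociclib, ATP6V1H with indisulam and ATP6V0E1 with the combination. DESeq2 did not call ATP6V1D with palbociclib in A549 (0.13, adjusted p = 0.219) or SUM159 (0.15, adjusted p = 0.0951). ATP6V1C1, a subunit of the cytosolic V1 sector, gave the largest rise in A549. In A549, ATP6V1C1 was at 86.5 and 95.8 CPM in the untreated libraries, 99.7 and 98.7 under palbociclib, 129 and 136 under indisulam and 142 and 144 under both drugs. In SUM159, ATP6V1C1 was at 89.7 and 91.3 CPM in the untreated libraries, 90.7 and 83.8 under palbociclib, 104 and 102 under indisulam and 101 and 106 under both drugs. The 4 A549 libraries with indisulam, alone or combined, stood above the 4 without it. Its change with the combination was 0.65 ± 0.05 (SE, edgeR adjusted p = 7.42e-08) in A549 and 0.19 ± 0.05 (SE, edgeR adjusted p = 0.00163) in SUM159, and with indisulam alone it was 0.54 ± 0.05 (SE, edgeR adjusted p = 1.08e-06) and 0.19 ± 0.05 (SE, edgeR adjusted p = 0.00315).

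ATP6V0A1, a membrane-sector subunit, moved up with palbociclib and down with indisulam. In A549, ATP6V0A1 was at 48.1 and 51.6 CPM in the untreated libraries, 70.3 and 69.5 under palbociclib, 33.4 and 37.3 under indisulam and 44.2 and 52.7 under both drugs. In SUM159, ATP6V0A1 was at 50.01 and 47.3 CPM in the untreated libraries, 56.6 and 62.7 under palbociclib, 34.7 and 35.2 under indisulam and 50.2 and 48.2 under both drugs. The palbociclib libraries were the highest and the indisulam libraries the lowest in both lines, and the combination libraries overlapped the untreated ones. The change with palbociclib was 0.49 ± 0.08 (SE, edgeR adjusted p = 0.000112) in A549 and 0.30 ± 0.06 (SE, edgeR adjusted p = 0.000291) in SUM159. With indisulam it was −0.50 ± 0.08 (SE, edgeR adjusted p = 0.000158) and −0.48 ± 0.06 (SE, edgeR adjusted p = 7.33e-06), and with the combination −0.04 ± 0.08 (SE, edgeR adjusted p = 0.688) and 0.02 ± 0.06 (SE, edgeR adjusted p = 0.814).

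ATP6V1A, the catalytic subunit, and ATP6V0D1, a membrane-sector subunit with a promoter E-box, rose in A549 and fell in SUM159 under some treatments. In A549, ATP6V1A was at 159 and 158 CPM in the untreated libraries, 205 and 205 under palbociclib, 184 and 191 under indisulam and 225 and 217 under both drugs. In SUM159, ATP6V1A was at 119 and 125 CPM in the untreated libraries, 144 and 131 under palbociclib, 101 and 106 under indisulam and 118 and 119.6 under both drugs. With indisulam the change was 0.24 ± 0.04 (SE, edgeR adjusted p = 0.000239) in A549, where both treated libraries were above the untreated, and −0.24 ± 0.05 (SE, edgeR adjusted p = 0.000679) in SUM159, where both were below. In A549, ATP6V0D1 was at 58.1 and 53.99 CPM in the untreated libraries, 69.95 and 71.9 under palbociclib, 61.8 and 60.4 under indisulam and 69.9 and 72.9 under both drugs. In SUM159, ATP6V0D1 was at 103 and 104 CPM in the untreated libraries, 106 and 106 under palbociclib, 83.3 and 84.6 under indisulam and 88.6 and 89.2 under both drugs. With the combination its change was 0.35 ± 0.05 (SE, edgeR adjusted p = 6.47e-05) in A549 and −0.22 ± 0.04 (SE, edgeR adjusted p = 9.88e-05) in SUM159, the latter −0.07 (edgeR adjusted p = 0.115) under total-count scaling. Of the remaining subunits, ATP6AP1, an accessory protein, rose by 0.35 with palbociclib and 0.34 with the combination in A549 and by 0.20 and 0.14 in SUM159, calls kept in every alternative.

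Among the proteases, 4 of 7 rose and 2 fell with palbociclib in each line. With indisulam 1 rose and 2 fell in A549, and 1 rose and 1 fell in SUM159. With the combination 3 rose and 1 fell in A549, and 5 rose and 1 fell in SUM159. TPP1, a tripeptidyl peptidase, gave the largest rise of the group. In A549, TPP1 was at 55.1 and 60.2 CPM in the untreated libraries, 74.5 and 69.9 under palbociclib, 43.4 and 45.4 under indisulam and 53.7 and 56.9 under both drugs. In SUM159, TPP1 was at 42.8 and 42.5 CPM in the untreated libraries, 63.9 and 70.4 under palbociclib, 45.7 and 47.7 under indisulam and 71.1 and 64.5 under both drugs. The palbociclib libraries were the highest in A549, while in SUM159 the palbociclib and combination libraries were both well above untreated. In SUM159 TPP1 rose by 0.66 ± 0.06 (SE, edgeR adjusted p = 8.56e-08) with palbociclib and by 0.67 ± 0.06 (SE, edgeR adjusted p = 3.92e-08) with the combination. In A549 it rose by 0.32 ± 0.06 (SE, edgeR adjusted p = 0.000507) with palbociclib and changed by −0.38 ± 0.06 (SE, edgeR adjusted p = 0.00018) with indisulam, and the combination value was −0.06 ± 0.06 (SE, edgeR adjusted p = 0.42). In 11.6% of its exon length TPP1 shares bases with another annotated gene on its strand.

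CTSB, the cysteine protease cathepsin B, rose in A549 with each treatment. In A549, CTSB was at 242 and 236 CPM in the untreated libraries, 274 and 289.5 under palbociclib, 274 and 278 under indisulam and 332 and 336 under both drugs. In SUM159, CTSB was at 406 and 405 CPM in the untreated libraries, 492 and 486 under palbociclib, 372 and 375 under indisulam and 445 and 456 under both drugs. Every treated A549 library was above untreated, and in SUM159 the indisulam libraries were below untreated and the others above. It rose by 0.24 ± 0.04 (SE, edgeR adjusted p = 0.000236) with palbociclib and 0.21 ± 0.04 (SE, edgeR adjusted p = 0.000658) with indisulam in A549. In SUM159 it rose by 0.27 ± 0.03 (SE, edgeR adjusted p = 2.77e-06) with palbociclib and changed by −0.12 ± 0.03 (SE, edgeR adjusted p = 0.007) with indisulam. That fall was −0.12 (edgeR adjusted p = 0.0501) without indisulam replicate 1 and −0.07 (edgeR adjusted p = 0.113) under total-count scaling.

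CTSD, the aspartyl protease cathepsin D, whose promoter holds an E-box, rose in SUM159 with the combination by 0.55 ± 0.05 (SE, edgeR adjusted p = 2.95e-08). Its A549 combination libraries stood apart from each other, at 105 and 70.4 CPM, against 73.3 and 64.02 CPM untreated. The A549 value of 0.35 ± 0.13 (SE, edgeR adjusted p = 0.0295) became 0.04 (edgeR adjusted p = 0.706) without combination replicate 1 and 0.26 (edgeR adjusted p = 0.199) without untreated replicate 2. CTSD shares 27.3% of its exon length with other annotated genes on its strand.

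The protease falls were smaller or rested on low levels. In A549, CTSZ was at 155 and 144 CPM in the untreated libraries, 134 and 130.4 under palbociclib, 141 and 132 under indisulam and 121 and 128 under both drugs. In SUM159, CTSZ was at 182 and 185 CPM in the untreated libraries, 192 and 196 under palbociclib, 194 and 191 under indisulam and 199 and 198 under both drugs. CTSZ, cathepsin Z, lay lower in the A549 combination libraries than untreated, with a change of −0.26 ± 0.05 (SE, edgeR adjusted p = 0.000443), and in SUM159 it was higher by 0.12 ± 0.04 (SE, edgeR adjusted p = 0.00823), or by 0.10 (edgeR adjusted p = 0.0669) without untreated replicate 1. With palbociclib alone CTSZ changed in A549 by −0.17 ± 0.05 (SE, edgeR adjusted p = 0.0112), or by −0.13 (edgeR adjusted p = 0.132) without untreated replicate 1 and −0.15 (edgeR adjusted p = 0.0773) without palbociclib replicate 2. The A549 call of CTSZ with indisulam alone (−0.13) was lost with DESeq2 (−0.13, adjusted p = 0.108) and under total-count scaling (−0.10, edgeR adjusted p = 0.103). Among other alternatives it was also lost without untreated replicate 1 (−0.07). CTSH, cathepsin H, was at 7.44 and 8.003 CPM in untreated A549 and at 6.22 and 6.21 CPM with palbociclib. That log2 difference of −0.31 ± 0.11 (SE, edgeR adjusted p = 0.0402) was lost when any 1 of the untreated, palbociclib or indisulam libraries was left out, with edgeR adjusted p between 0.0516 and 0.187. In SUM159 CTSH was at 1.74 and 2.203 CPM untreated and 1.35 and 1.21 CPM with palbociclib, a change of −0.63 ± 0.23 (SE, edgeR adjusted p = 0.027), which was −0.45 (edgeR adjusted p = 0.233) without untreated replicate 2 and −0.54 (edgeR adjusted p = 0.130) without palbociclib replicate 2. CTSL, cathepsin L, was at 128 and 131 CPM in untreated SUM159 and at 114 and 116 CPM with palbociclib, a change of −0.17 ± 0.04 (SE, edgeR adjusted p = 0.00118), which was −0.07 (edgeR adjusted p = 0.163) under total-count scaling. A549 values of CTSL did not pass in any treatment and ranged from −0.03 to 0.06.

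The glycosidases divided by drug. With palbociclib 5 of 7 rose and 1 fell in each line. With indisulam 1 rose and 4 fell in A549, and none rose and 4 fell in SUM159. With the combination 1 rose and 3 fell in A549, and 2 rose and 3 fell in SUM159. GLB1, which encodes the β-galactosidase behind the senescence stain, rose slightly with palbociclib. In A549, GLB1 was at 75.03 and 73.8 CPM in the untreated libraries, 82.8 and 84.7 under palbociclib, 67.8 and 71.2 under indisulam and 74.3 and 75.9 under both drugs. In SUM159, GLB1 was at 68 and 65.3 CPM in the untreated libraries, 73.2 and 73.3 under palbociclib, 63.1 and 63.1 under indisulam and 65.5 and 64.02 under both drugs. The palbociclib libraries were the highest of each line and lay apart from untreated. The rise with palbociclib was 0.17 ± 0.05 (SE, edgeR adjusted p = 0.00985) in A549, or 12.6%, and 0.14 ± 0.04 (SE, edgeR adjusted p = 0.015) in SUM159, or 9.92%. DESeq2 called neither rise (0.16, adjusted p = 0.0738 in A549 and 0.14, adjusted p = 0.0536 in SUM159). The A549 call was also lost without untreated replicate 2 (0.15) or palbociclib replicate 2 (0.15), and the SUM159 call without untreated replicate 2 (0.11). The combination values were 0.01 ± 0.05 (SE, edgeR adjusted p = 0.826) in A549 and −0.04 ± 0.04 (SE, edgeR adjusted p = 0.44) in SUM159. Under total-count scaling the SUM159 combination value turned to 0.107 and passed (edgeR adjusted p = 0.0440), and with at least 10 counts in every library it was 0.0013 (edgeR adjusted p = 0.980). The indisulam values were −0.10 ± 0.05 (SE, edgeR adjusted p = 0.11) and −0.08 ± 0.05 (SE, edgeR adjusted p = 0.169). The study reports more stained cells with the combination, after days of treatment rather than hours and mostly at other doses. The stain shows enzyme activity, which was not tested here, so these RNA values cannot be set against that result.

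GAA, the acid α-glucosidase that digests glycogen and carries an E-box in its promoter, rose in both lines with palbociclib. In A549, GAA was at 43.4 and 41.8 CPM in the untreated libraries, 61.3 and 66.99 under palbociclib, 31.1 and 32.6 under indisulam and 43.5 and 36.9 under both drugs. In SUM159, GAA was at 74.7 and 68.7 CPM in the untreated libraries, 105 and 110.3 under palbociclib, 56.3 and 62.02 under indisulam and 98.6 and 97.1 under both drugs. The palbociclib libraries were the highest and the indisulam libraries the lowest in each line, and the SUM159 combination libraries stayed above untreated while those of A549 overlapped it. The change with palbociclib was 0.59 ± 0.07 (SE, edgeR adjusted p = 1.25e-05) in A549 and 0.59 ± 0.05 (SE, edgeR adjusted p = 5.47e-08) in SUM159, and with indisulam −0.42 ± 0.08 (SE, edgeR adjusted p = 0.00047) and −0.28 ± 0.06 (SE, edgeR adjusted p = 0.000621). With the combination it was −0.08 ± 0.08 (SE, edgeR adjusted p = 0.373) in A549 and 0.45 ± 0.05 (SE, edgeR adjusted p = 9.83e-07) in SUM159.

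GUSB, the β-glucuronidase, fell with every treatment in both lines. In A549, GUSB was at 59.6 and 59.2 CPM in the untreated libraries, 41.1 and 44.6 under palbociclib, 41.2 and 41.6 under indisulam and 33.99 and 32.4 under both drugs. In SUM159, GUSB was at 43.4 and 44.6 CPM in the untreated libraries, 30.98 and 33.8 under palbociclib, 35.6 and 34.9 under indisulam and 29.3 and 28.9 under both drugs. No treated library reached the untreated level, and the combination libraries were the lowest in each line. The combination changed it by −0.84 ± 0.06 (SE, edgeR adjusted p = 2.05e-08) in A549 and −0.60 ± 0.06 (SE, edgeR adjusted p = 9.74e-08) in SUM159, palbociclib by −0.47 ± 0.06 (SE, edgeR adjusted p = 1.28e-05) and −0.44 ± 0.06 (SE, edgeR adjusted p = 4.87e-06), and indisulam by −0.52 ± 0.06 (SE, edgeR adjusted p = 4.46e-06) and −0.32 ± 0.06 (SE, edgeR adjusted p = 0.000212).

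HEXA, the α subunit of β-hexosaminidase, and MANBA, the β-mannosidase, rose with palbociclib and fell with indisulam in both lines. In A549, HEXA was at 44.8 and 45.2 CPM in the untreated libraries, 57.9 and 58.7 under palbociclib, 33.9 and 37.5 under indisulam and 30.96 and 37.8 under both drugs. In SUM159, HEXA was at 35.9 and 35.4 CPM in the untreated libraries, 45.8 and 45.4 under palbociclib, 27.4 and 27.5 under indisulam and 33.03 and 31.2 under both drugs. HEXA changed by 0.37 ± 0.08 (SE, edgeR adjusted p = 0.00115) with palbociclib and −0.34 ± 0.08 (SE, edgeR adjusted p = 0.00323) with indisulam in A549, the latter −0.26 (edgeR adjusted p = 0.0592) without indisulam replicate 1. Its combination libraries in A549 overlapped those with indisulam alone, with −0.39 ± 0.08 (SE, edgeR adjusted p = 0.000915) against untreated. HEXA in SUM159 changed by 0.35 with palbociclib and −0.38 with indisulam. Its combination value there, −0.15 ± 0.06 (SE, edgeR adjusted p = 0.0269), lost its call in 7 of 15 alternatives, among them DESeq2 (−0.15, adjusted p = 0.108), total-count scaling (−0.00096, edgeR adjusted p = 0.990) and leaving out combination replicate 2 (−0.11, edgeR adjusted p = 0.167) or untreated replicate 1 (−0.14, edgeR adjusted p = 0.109) or 2 (−0.17, edgeR adjusted p = 0.0652). In A549, MANBA was at 15.97 and 14.7 CPM in the untreated libraries, 21.5 and 22.1 under palbociclib, 10.1 and 10.7 under indisulam and 12.97 and 11.5 under both drugs. In SUM159, MANBA was at 26.3 and 24.5 CPM in the untreated libraries, 33.5 and 33.6 under palbociclib, 21.5 and 21.7 under indisulam and 26.3 and 23.5 under both drugs. MANBA rose with palbociclib by 0.51 ± 0.09 (SE, edgeR adjusted p = 0.000245) in A549 and 0.40 ± 0.07 (SE, edgeR adjusted p = 6.48e-05) in SUM159, and with indisulam it changed by −0.56 ± 0.10 (SE, edgeR adjusted p = 0.00024) in A549. In SUM159 the indisulam change was −0.23 ± 0.07 (SE, edgeR adjusted p = 0.0134), and the call was lost without untreated replicate 1 (−0.18, edgeR adjusted p = 0.142) or either indisulam library (−0.23 in each, edgeR adjusted p = 0.0615 and 0.0653). With the combination MANBA changed in A549 by −0.33 ± 0.10 (SE, edgeR adjusted p = 0.00893), a call lost with DESeq2 (−0.32, adjusted p = 0.0540), under total-count scaling (−0.24, edgeR adjusted p = 0.0502) and without untreated replicate 1 (−0.26, edgeR adjusted p = 0.0931) or combination replicate 2 (−0.25, edgeR adjusted p = 0.0662). NEU1, the sialidase, rose with palbociclib (0.61 in A549, 0.39 in SUM159) and with the combination (0.45 and 0.42), calls kept in every alternative. GLA, the α-galactosidase, was at 84.2 and 80.9 CPM in untreated SUM159 and at 65.4 and 67.3 CPM in the combination, or −0.32 ± 0.05 (SE, edgeR adjusted p = 1.96e-05). The other GLA call was a rise in A549 with indisulam of 0.16 ± 0.05 (SE, edgeR adjusted p = 0.0121), lost without untreated replicate 1 (0.15, edgeR adjusted p = 0.0730) or indisulam replicate 2 (0.12, edgeR adjusted p = 0.120).

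The lipid hydrolases followed this division in part. With palbociclib ASAH1, LIPA and SMPD1 were higher in each line, 3 of 4. With indisulam 3 of 4 were lower in each line, but not the same 3. ASAH1 and LIPA fell in both lines. PPT1 fell in A549 (−0.23), a call lost without untreated replicate 1 (−0.17) or indisulam replicate 1 (−0.18). SMPD1 fell in SUM159 (−0.31) and was not called in A549 (0.01). With the combination 1 rose (SMPD1) and 2 fell (LIPA and PPT1) in A549, and none rose and 3 fell (ASAH1, LIPA and PPT1) in SUM159, of which the PPT1 calls held in every alternative in both lines. LIPA, the acid lipase that frees cholesterol from its esters, swung from high with palbociclib to low with indisulam. In A549, LIPA was at 74.3 and 67.3 CPM in the untreated libraries, 99.2 and 99.1 under palbociclib, 40.1 and 41.8 under indisulam and 62.5 and 63.8 under both drugs. In SUM159, LIPA was at 96.6 and 95.1 CPM in the untreated libraries, 149 and 136 under palbociclib, 62.9 and 58.1 under indisulam and 85.4 and 88.4 under both drugs. In both lines the libraries ran in the order palbociclib, untreated, combination, indisulam from high to low, with no overlap. LIPA rose by 0.48 ± 0.05 (SE, edgeR adjusted p = 4.16e-06) in A549 and 0.57 ± 0.05 (SE, edgeR adjusted p = 3.43e-08) in SUM159 with palbociclib, and changed by −0.79 ± 0.06 (SE, edgeR adjusted p = 6.05e-08) and −0.66 ± 0.05 (SE, edgeR adjusted p = 3.25e-08) with indisulam. The combination calls were small. In A549 the value of −0.17 became −0.09 (edgeR adjusted p = 0.262) without untreated replicate 1 and −0.15 (edgeR adjusted p = 0.0698) without combination replicate 1. In SUM159 the value of −0.14 was −0.13 (edgeR adjusted p = 0.0916) without untreated replicate 1, −0.12 (edgeR adjusted p = 0.129) without combination replicate 1 and 0.01 (edgeR adjusted p = 0.921) under total-count scaling.

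SMPD1, the acid sphingomyelinase, makes ceramide, which ASAH1, the acid ceramidase, then cleaves. In A549, ASAH1 was at 58.6 and 57.8 CPM in the untreated libraries, 91.9 and 90.2 under palbociclib, 43.2 and 40.8 under indisulam and 55.01 and 59.7 under both drugs. In SUM159, ASAH1 was at 43.3 and 43.7 CPM in the untreated libraries, 60.5 and 55.8 under palbociclib, 30.9 and 28.6 under indisulam and 37.5 and 40.8 under both drugs. ASAH1 was highest with palbociclib and lowest with indisulam in both lines, with changes of 0.64 ± 0.05 (SE, edgeR adjusted p = 2.43e-07) and −0.47 ± 0.06 (SE, edgeR adjusted p = 1.09e-05) in A549 and 0.42 ± 0.06 (SE, edgeR adjusted p = 1.35e-05) and −0.55 ± 0.06 (SE, edgeR adjusted p = 2.98e-06) in SUM159. In A549, SMPD1 was at 7.85 and 5.86 CPM in the untreated libraries, 11.3 and 11.3 under palbociclib, 6.93 and 6.99 under indisulam and 10.3 and 8.81 under both drugs. In SUM159, SMPD1 was at 34.2 and 33.3 CPM in the untreated libraries, 44.5 and 46.6 under palbociclib, 26.5 and 28.1 under indisulam and 36.2 and 38 under both drugs. SMPD1 rose with palbociclib by 0.72 ± 0.13 (SE, edgeR adjusted p = 0.000413) in A549, where it was under 12 CPM throughout, and by 0.43 ± 0.06 (SE, edgeR adjusted p = 5.27e-06) in SUM159. With the combination SMPD1 rose in A549 by 0.47 ± 0.14 (SE, edgeR adjusted p = 0.00842), a call lost without untreated replicate 2 (0.28, edgeR adjusted p = 0.121) or combination replicate 1 (0.36, edgeR adjusted p = 0.0565). The ASAH1 value in SUM159 with the combination, −0.15 ± 0.06 (SE, edgeR adjusted p = 0.0383), lost its call in 8 of 15 alternatives, among them total-count scaling (−0.0054, edgeR adjusted p = 0.946) and leaving out combination replicate 1 (−0.09, edgeR adjusted p = 0.300) or untreated replicate 1 (−0.16, edgeR adjusted p = 0.0891) or 2 (−0.15, edgeR adjusted p = 0.121). PPT1, the palmitoyl-protein thioesterase, did not share the rise with palbociclib, with values of −0.09 ± 0.05 (SE, edgeR adjusted p = 0.18) in A549 and −0.08 ± 0.04 (SE, edgeR adjusted p = 0.108) in SUM159. It was at 75.9 and 70.4 CPM in untreated A549 and at 54.3 and 54.3 CPM in the combination, or −0.43 ± 0.06 (SE, edgeR adjusted p = 1.27e-05), and in SUM159 it went from 209.7 and 217 CPM to 174 and 181 CPM, or −0.26 ± 0.04 (SE, edgeR adjusted p = 4.46e-05), and −0.12 (edgeR adjusted p = 0.0276) under total-count scaling.

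Of the 3 luminal cofactors, 2 rose with each drug and 3 with the combination in A549. In SUM159, 2 rose and 1 fell with palbociclib and with the combination, and 1 rose with indisulam. GRN encodes progranulin, which is cut into granulins in the lysosome. In A549, GRN was at 97.4 and 90.8 CPM in the untreated libraries, 130.3 and 140.3 under palbociclib, 118 and 122 under indisulam and 163 and 145 under both drugs. In SUM159, GRN was at 119 and 122 CPM in the untreated libraries, 167 and 173 under palbociclib, 146 and 143 under indisulam and 204 and 207 under both drugs. Every treated library was above every untreated one of its line, and all GRN calls were kept in every alternative. The combination change was 0.71 ± 0.06 (SE, edgeR adjusted p = 1.3e-07) in A549 and 0.77 ± 0.04 (SE, edgeR adjusted p = 1.3e-11) in SUM159, palbociclib gave 0.53 and 0.50, and indisulam 0.35 and 0.26. PSAP, the precursor of the saposins that help sphingolipid hydrolases, was at 691 and 666 CPM in untreated A549 and at 975 and 968 CPM in the combination, a change of 0.52 ± 0.04 (SE, edgeR adjusted p = 1.26e-07), and rose by 0.33 ± 0.03 (SE, edgeR adjusted p = 2.6e-07) in SUM159. NPC2 binds cholesterol for export. In A549, NPC2 was at 23.05 and 21.6 CPM in the untreated libraries, 24.4 and 25.3 under palbociclib, 25.3 and 24.3 under indisulam and 26.7 and 27.98 under both drugs. In SUM159, NPC2 was at 66.6 and 63.8 CPM in the untreated libraries, 57.8 and 55.4 under palbociclib, 61.2 and 59.3 under indisulam and 51.99 and 55.4 under both drugs. The combination raised it in A549 by 0.29 ± 0.07 (SE, edgeR adjusted p = 0.00293) and changed it in SUM159 by −0.28 ± 0.05 (SE, edgeR adjusted p = 0.000113).

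Of the 7 membrane proteins, 2 rose with palbociclib in A549 and 1 in SUM159, CD63, lost without untreated replicate 1 (0.11), and none fell. Among all genes 22% rose in A549 and 25.5% in SUM159, so the rises are not read as a trait of this group. With indisulam 2 rose and 1 fell in A549 and 1 rose and 3 fell in SUM159. With the combination 2 rose and 2 fell in A549, and 1 (CLN3) rose and 3 (LAMP2, NPC1 and SCARB2) fell in SUM159. The fall of NPC1, a cholesterol exporter, was −0.12 ± 0.04 (SE, edgeR adjusted p = 0.0185) in SUM159, and its call was lost in 6 of 15 alternatives, among them leaving out untreated replicate 1 (−0.11, edgeR adjusted p = 0.0811) or combination replicate 2 (−0.10, edgeR adjusted p = 0.0933), while total-count scaling gave 0.0315 (edgeR adjusted p = 0.516). SCARB2, or LIMP-2, which carries glucocerebrosidase to the lysosome, gave the largest fall of this group. In A549, SCARB2 was at 120.1 and 116 CPM in the untreated libraries, 143 and 141 under palbociclib, 65.1 and 62 under indisulam and 73.4 and 70.9 under both drugs. In SUM159, SCARB2 was at 198 and 202 CPM in the untreated libraries, 209 and 198 under palbociclib, 126 and 122 under indisulam and 112 and 119.7 under both drugs. The 4 indisulam-containing libraries of each line lay far below the other 4, with no overlap. Indisulam changed it by −0.90 ± 0.05 (SE, edgeR adjusted p = 2.44e-09) in A549, a fall to 0.538 of the untreated level, and by −0.69 ± 0.04 (SE, edgeR adjusted p = 1.8e-09) in SUM159, to 0.618. In the combination the change was −0.71 ± 0.05 (SE, edgeR adjusted p = 8.85e-09) in A549 and −0.79 ± 0.04 (SE, edgeR adjusted p = 4.84e-11) in SUM159.

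LAMP2, a major protein of the lysosomal membrane, was much higher in SUM159. In A549, LAMP2 was at 86.8 and 82.7 CPM in the untreated libraries, 86.4 and 93.01 under palbociclib, 87.9 and 89.5 under indisulam and 97.2 and 97.1 under both drugs. In SUM159, LAMP2 was at 389 and 399.5 CPM in the untreated libraries, 383 and 354 under palbociclib, 334 and 320.1 under indisulam and 289 and 314 under both drugs. The SUM159 combination libraries were the lowest of that line and the A549 combination libraries the highest of theirs. The change was 0.20 ± 0.05 (SE, edgeR adjusted p = 0.00371) in A549 and −0.39 ± 0.05 (SE, edgeR adjusted p = 8.75e-07) in SUM159. LAMP1, with 6 copies of the E-box in its promoter window, stayed within −0.03 and 0.12 on the log2 scale in all 6 comparisons with untreated. Its single call, 0.12 ± 0.05 (SE, edgeR adjusted p = 0.0438) with indisulam in A549, was lost without any 1 of the untreated, indisulam or combination libraries (edgeR adjusted p from 0.0640 to 0.185).

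CD63, a tetraspanin, is a marker of late endosomes and lysosomes with a promoter E-box. In A549, CD63 was at 433 and 436 CPM in the untreated libraries, 474 and 529 under palbociclib, 489 and 495 under indisulam and 538 and 548.6 under both drugs. In SUM159, CD63 was at 328 and 336 CPM in the untreated libraries, 361 and 361 under palbociclib, 309.8 and 304 under indisulam and 329 and 341 under both drugs. All treated A549 libraries were above untreated, and the SUM159 indisulam libraries were below. Indisulam changed it by 0.18 ± 0.05 (SE, edgeR adjusted p = 0.00582) in A549 and −0.11 ± 0.03 (SE, edgeR adjusted p = 0.0142) in SUM159. The SUM159 call was lost without untreated replicate 2 (−0.10) or indisulam replicate 2 (−0.09). It was also lost under total-count scaling (−0.06, edgeR adjusted p = 0.186) and without a filter on low counts (−0.11, edgeR adjusted p = 0.0631). MCOLN1, the lysosomal calcium channel, passed in no comparison with untreated, with values between −0.23 and 0.15. CLN3 was counted at 0.191 to 0.993 CPM in all 16 libraries and shares 25.3% of its exon length with another gene on its strand. Its SUM159 change with indisulam of 1.44 ± 0.45 (SE, edgeR adjusted p = 0.0148) was 0.96 (edgeR adjusted p = 0.208) without indisulam replicate 2, 1.45 (edgeR adjusted p = 0.0727) without untreated replicate 1 and 1.43 (edgeR adjusted p = 0.0783) without untreated replicate 2. Its SUM159 change with the combination, 1.27 ± 0.46 (SE, edgeR adjusted p = 0.0213), was 0.95 (edgeR adjusted p = 0.147) without combination replicate 2, 1.28 (edgeR adjusted p = 0.0882) without untreated replicate 1, 1.27 (edgeR adjusted p = 0.0916) without untreated replicate 2 and 1.30 (adjusted p = 0.0928) with DESeq2.

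The autophagy genes held the largest rises among the genes above 1 CPM. With palbociclib 4 of 5 rose in each line and none fell, with indisulam 4 rose and 1 fell in A549 and 3 rose and 1 fell in SUM159, and with the combination 5 rose in A549 and 4 in SUM159. WIPI1 binds the lipid mark on which autophagosomes form. In A549, WIPI1 was at 4.91 and 5.41 CPM in the untreated libraries, 15.2 and 14.3 under palbociclib, 2.57 and 2.97 under indisulam and 7.77 and 6.75 under both drugs. In SUM159, WIPI1 was at 15 and 13.7 CPM in the untreated libraries, 36.1 and 37.6 under palbociclib, 9.79 and 11.03 under indisulam and 23.95 and 23.3 under both drugs. The palbociclib libraries were the highest, the indisulam libraries the lowest and the combination libraries between palbociclib and untreated, without overlap in either line. WIPI1 rose 2.85-fold with palbociclib in A549, or 1.51 ± 0.12 (SE, edgeR adjusted p = 9.68e-08) on the log2 scale, and 2.57-fold in SUM159, or 1.36 ± 0.07 (SE, edgeR adjusted p = 6.8e-11). Indisulam changed it by −0.89 ± 0.16 (SE, edgeR adjusted p = 0.00032) and −0.46 ± 0.09 (SE, edgeR adjusted p = 0.000457). The combination left it higher than untreated by 0.50 ± 0.13 (SE, edgeR adjusted p = 0.0054) in A549, or 0.43 (edgeR adjusted p = 0.0539) without untreated replicate 1, and by 0.72 ± 0.08 (SE, edgeR adjusted p = 3.02e-07) in SUM159.

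GABARAPL1, an ATG8-family protein of the autophagosome membrane, rose with each treatment. In A549, GABARAPL1 was at 31.2 and 30.2 CPM in the untreated libraries, 51.02 and 53.97 under palbociclib, 50.8 and 50.1 under indisulam and 66.5 and 70.6 under both drugs. In SUM159, GABARAPL1 was at 4.97 and 6.94 CPM in the untreated libraries, 11.9 and 10.8 under palbociclib, 12.2 and 13.4 under indisulam and 17.5 and 16.8 under both drugs. All treated libraries were above all untreated ones, and the combination libraries were the highest. It rose 2.23-fold with the combination in A549, or 1.16 ± 0.06 (SE, edgeR adjusted p = 4.5e-10) on the log2 scale, and 2.88-fold in SUM159, or 1.53 ± 0.12 (SE, edgeR adjusted p = 5.47e-09). The rises with palbociclib were 0.78 ± 0.06 (SE, edgeR adjusted p = 8.86e-08) and 0.92 ± 0.13 (SE, edgeR adjusted p = 9.09e-06), and those with indisulam 0.72 ± 0.06 (SE, edgeR adjusted p = 2.82e-07) and 1.11 ± 0.13 (SE, edgeR adjusted p = 1.92e-06).

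UVRAG, which acts with the PI3-kinase complex of autophagy, responded in A549. In A549, UVRAG was at 18.4 and 19.6 CPM in the untreated libraries, 19.8 and 19.5 under palbociclib, 24.3 and 24.9 under indisulam and 28.98 and 28.03 under both drugs. In SUM159, UVRAG was at 34.05 and 34.9 CPM in the untreated libraries, 35.7 and 33.2 under palbociclib, 35.2 and 35.8 under indisulam and 36.99 and 37.4 under both drugs. It rose in A549 with indisulam by 0.37 ± 0.07 (SE, edgeR adjusted p = 0.000668) and with the combination by 0.59 ± 0.07 (SE, edgeR adjusted p = 6.28e-06), and its SUM159 values, 0.11 at most, did not pass. SQSTM1, the p62 receptor, and MAP1LC3B, an LC3 protein, rose in all 6 comparisons with untreated, SQSTM1 by 0.10 to 0.43 and MAP1LC3B by 0.13 to 0.57 on the log2 scale. The smallest of these, both in SUM159 with indisulam, were lost without either indisulam library, with edgeR adjusted p up to 0.145 for SQSTM1 and 0.127 for MAP1LC3B over the alternatives.

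**Figure D2:**
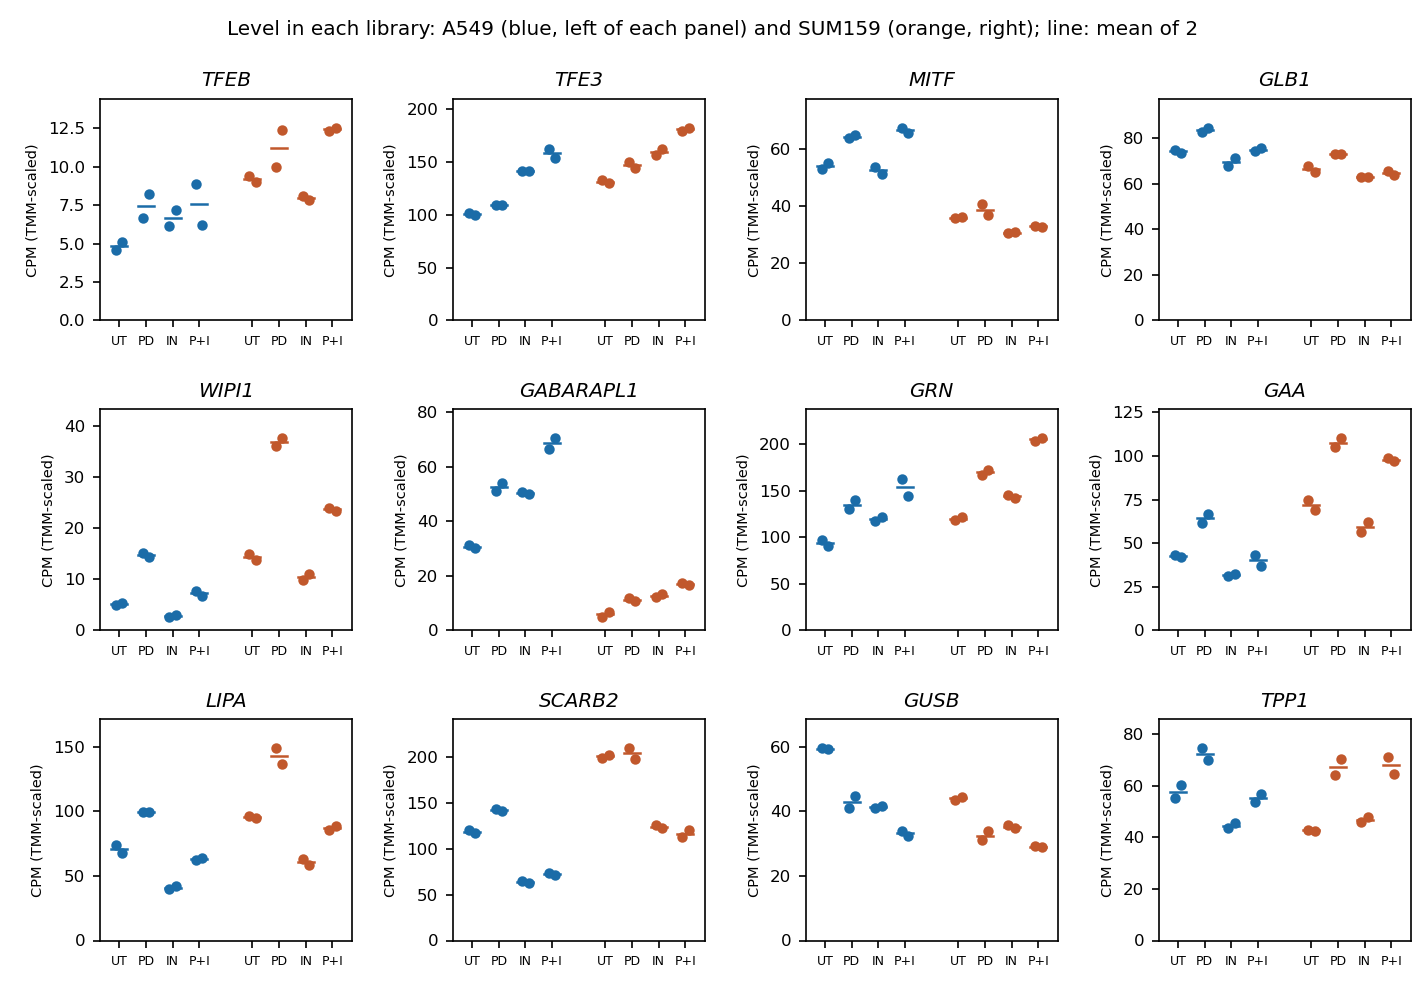
Level in CPM (TMM-scaled, linear axis from 0) of 12 of the genes in each of the 16 libraries, A549 in blue and SUM159 in orange, with a line at the mean of the 2 libraries of each group (UT, PD, IN, P+I). WIPI1 reaches 14.3 to 15.2 CPM in A549 and 36.1 to 37.6 CPM in SUM159 with palbociclib, SCARB2 drops in all indisulam-containing libraries, and GUSB is highest in untreated cells of both lines.

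Whether each drug acted alike with and without the other was read from comparisons that share no library. For indisulam these were indisulam against untreated and the combination against palbociclib. In A549, 13 genes were higher in both, of 17 and 14 called (76.5% and 92.9%), and 11 were lower in both, of 12 and 12 (91.7% of each). In the combination against palbociclib 51.5% of all genes passed, 23.7% higher and 27.8% lower. In SUM159, 6 were higher in both, of 8 and 8 (75% of each), and 16 were lower in both, of 16 and 20 (100% and 80%), where 48.3% of all genes passed, 23.4% higher and 24.9% lower. Under total-count scaling the SUM159 split of the combination against palbociclib was 10 higher and 15 lower in place of 8 and 20. Over all tested genes, 70.6% and 69.4% of the higher and 78.8% and 73.5% of the lower calls of each comparison were shared in A549, and 68.9% and 64.5% of the higher and 75.4% and 75.6% of the lower calls in SUM159. SCARB2, LIPA, WIPI1, ASAH1, GAA, HEXA, MANBA, GUSB and ATP6V0A1 were lower in both comparisons in both lines, and TFE3, ATP6V1C1, GRN and GABARAPL1 were higher in both. No gene of the list was called in opposite directions, and such calls were rare over all genes too, 0.989% of those called in both comparisons in A549 and 1.16% in SUM159.

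For palbociclib the 2 comparisons were palbociclib against untreated and the combination against indisulam. In A549, 21 genes were higher in both, of 29 and 23 (72.4% and 91.3%), and CTSZ and GUSB were lower in both. In the combination against indisulam 38.8% of all genes passed, 18.6% higher and 20.1% lower. In SUM159, 24 were higher in both, of 27 and 24 (88.9% and 100%), and CTSL, GUSB and NPC2 were lower in both, where 52.9% of all genes passed in the second, 24.9% higher and 28% lower. The SUM159 split of the combination against indisulam was 24 higher and 6 lower, or 33 and 2 under total-count scaling. Added to indisulam, palbociclib raised WIPI1 by 1.39 ± 0.14 (SE, edgeR adjusted p = 3.04e-06) in A549 and by 1.18 ± 0.08 (SE, edgeR adjusted p = 1.19e-09) in SUM159, and LIPA by 0.63 ± 0.06 (SE, edgeR adjusted p = 7.97e-07) and 0.52 ± 0.05 (SE, edgeR adjusted p = 2.34e-07). Over all tested genes, 57.4% and 67.8% of the higher and 69.4% and 72.7% of the lower calls of each comparison were shared in A549, and 70% and 71.6% of the higher and 80.4% and 83.3% of the lower calls in SUM159. The scatter plots of each drug alone and added to the other show the genes near the diagonal.

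**Figure D3:**
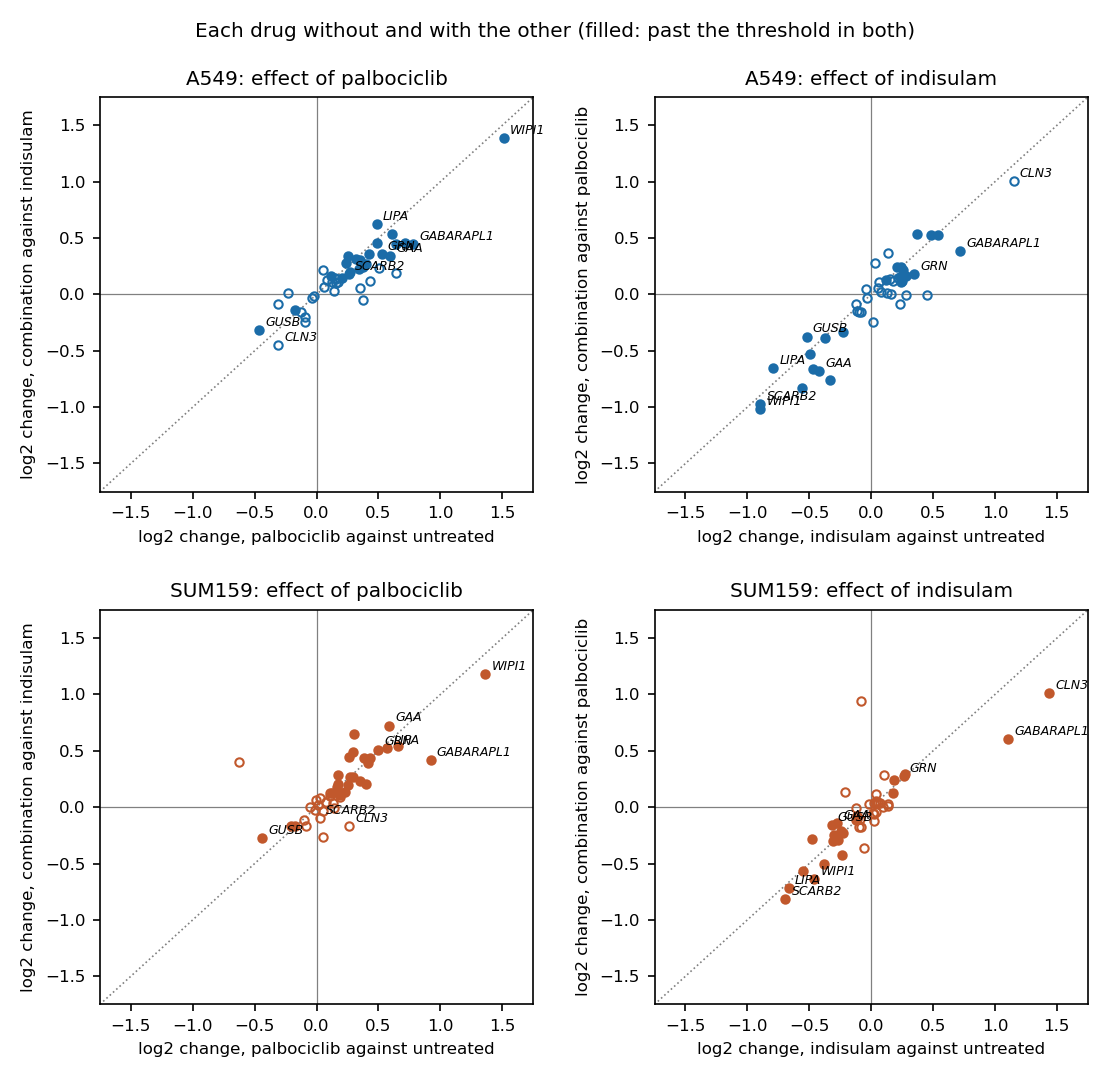
Log2 change of each of the 45 genes for palbociclib (left) or indisulam (right), without the other drug (x axis) and with it (y axis), in A549 (top) and SUM159 (bottom). Filled points have an edgeR adjusted p under 0.05 in both comparisons, which share no library, and the dotted line marks equal change. WIPI1 stands at the top right for palbociclib (1.51 and 1.39 in A549, 1.36 and 1.18 in SUM159) and at the bottom left for indisulam, and no filled point lies in the upper left or lower right quadrant.

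For each gene the log2 change of the combination was tested against the summed log2 changes of both drugs given alone. In A549, 2 genes passed, where 3.53% of all genes did: ATP6AP1 by −0.29 ± 0.06 (SE, edgeR adjusted p = 0.024) and GABARAPL1 by −0.33 ± 0.08 (SE, edgeR adjusted p = 0.0365), both below the sum. When an untreated, palbociclib or indisulam library was left out, 1 gene passed without palbociclib replicate 1 and 0 passed without each of the others, and DESeq2 called 0. At an unadjusted p under 0.05 there were 7. In SUM159, GLA passed by −0.31 ± 0.07 (SE, edgeR adjusted p = 0.0142), where 4.38% of all genes did, and 0 genes passed without indisulam replicate 2 or combination replicate 1, and 3 without palbociclib replicate 2. A gene that did not pass is not shown to be additive; for WIPI1 the departures were −0.12 ± 0.19 (SE, edgeR adjusted p = 0.802) in A549 and −0.18 ± 0.11 (SE, edgeR adjusted p = 0.404) in SUM159.

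With palbociclib 26 of the 45 genes were higher in both lines (57.8%), CTSH and GUSB were lower in both (4.44%), 7 were called in 1 line, 10 in neither and none in opposite directions. Of the 14122 genes tested in both lines, 13.6% were higher in both, 19.1% lower in both and 1.3% called in opposite directions. A direct test of the difference in response (SUM159 minus A549, fitted over all 16 libraries) passed for 5 genes, where 12.8% of all genes passed (9.65% higher and 3.15% lower in SUM159). These were TPP1 0.43, CTSZ 0.35 and GLA 0.24, higher in SUM159, and ATP6V0D1 −0.21 and NPC2 −0.27, lower. That count rested on the libraries used and on the scaling. It was 17 (2 higher, 15 lower) without either A549 combination library, 16 without A549 palbociclib replicate 1, 15 and 14 without A549 indisulam replicate 2 and 1, 11 and 10 without A549 untreated replicate 1 and 2, and 3 without either untreated SUM159 library. The split of 3 higher and 2 lower was 2 and 5 with RLE scaling, 2 and 3 with total counts and 2 and 4 with DESeq2.

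With indisulam 6 genes were higher in both lines (13.3%), 9 lower in both (20%) and 3 called in opposite directions (6.67%), where 13.5%, 17.5% and 1.82% of all genes were. The difference in response passed for 19 genes, 3 higher and 16 lower in SUM159, where 15% of all genes passed (8.04% higher and 6.97% lower). Under total-count scaling it was 4 higher and 10 lower. It was 9 to 11 when an untreated SUM159 library (10 and 11), an indisulam SUM159 library (9 and 11), A549 untreated replicate 2 (11) or A549 indisulam replicate 2 (11) was left out. Of the 9 proton pump genes, 7 were among the 16. The 3 genes of opposite direction were ATP6V1A, with a difference of −0.48 ± 0.07 (SE, edgeR adjusted p = 2.3e-05), CTSB, with −0.33 ± 0.05 (SE, edgeR adjusted p = 0.000142), and CD63, with −0.29 ± 0.06 (SE, edgeR adjusted p = 0.00215), and these 3 differences were kept in every alternative. Not all of the opposite calls themselves held. Under total-count scaling the SUM159 falls of CTSB (−0.07, edgeR adjusted p = 0.113) and CD63 (−0.06, edgeR adjusted p = 0.186) were not called. The largest difference upward was that of TPP1, 0.51 ± 0.09 (SE, edgeR adjusted p = 0.000574).

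With the combination 16 genes were higher in both lines (35.6%), 6 lower in both (13.3%) and 4 called in opposite directions (8.89%), where 17.2%, 23% and 5.34% of all genes were. The difference in response passed for 23 genes, 10 higher and 13 lower in SUM159, where 30.9% of all genes passed (19.1% higher and 11.8% lower). The split was 5 and 19 with RLE scaling and 3 and 19 with DESeq2. The 4 of opposite direction were ATP6V0D1, with a difference of −0.50 ± 0.07 (SE, edgeR adjusted p = 2.86e-06), CTSZ, with 0.44 ± 0.06 (SE, edgeR adjusted p = 6.78e-06), NPC2, with −0.51 ± 0.09 (SE, edgeR adjusted p = 7.88e-05), and LAMP2, with −0.52 ± 0.07 (SE, edgeR adjusted p = 4.75e-06). TPP1 was higher in SUM159 by 0.80 ± 0.09 (SE, edgeR adjusted p = 4e-07) and GAA by 0.60 ± 0.10 (SE, edgeR adjusted p = 3.74e-05). These 6 differences kept their direction and an adjusted p under 0.05 in every alternative, but not every opposite call did. In SUM159 the fall of ATP6V0D1 was not called under total-count scaling (−0.07, edgeR adjusted p = 0.115). The SUM159 rise of CTSZ was not called without untreated replicate 1 (0.10). In size the GAA difference was 0.33 without A549 combination replicate 2. That of CTSZ was 0.24 without A549 untreated replicate 1 and 0.26 without A549 combination replicate 1. All 6 are marked as differing. The plot of both lines shows them off the diagonal.

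**Figure D4:**
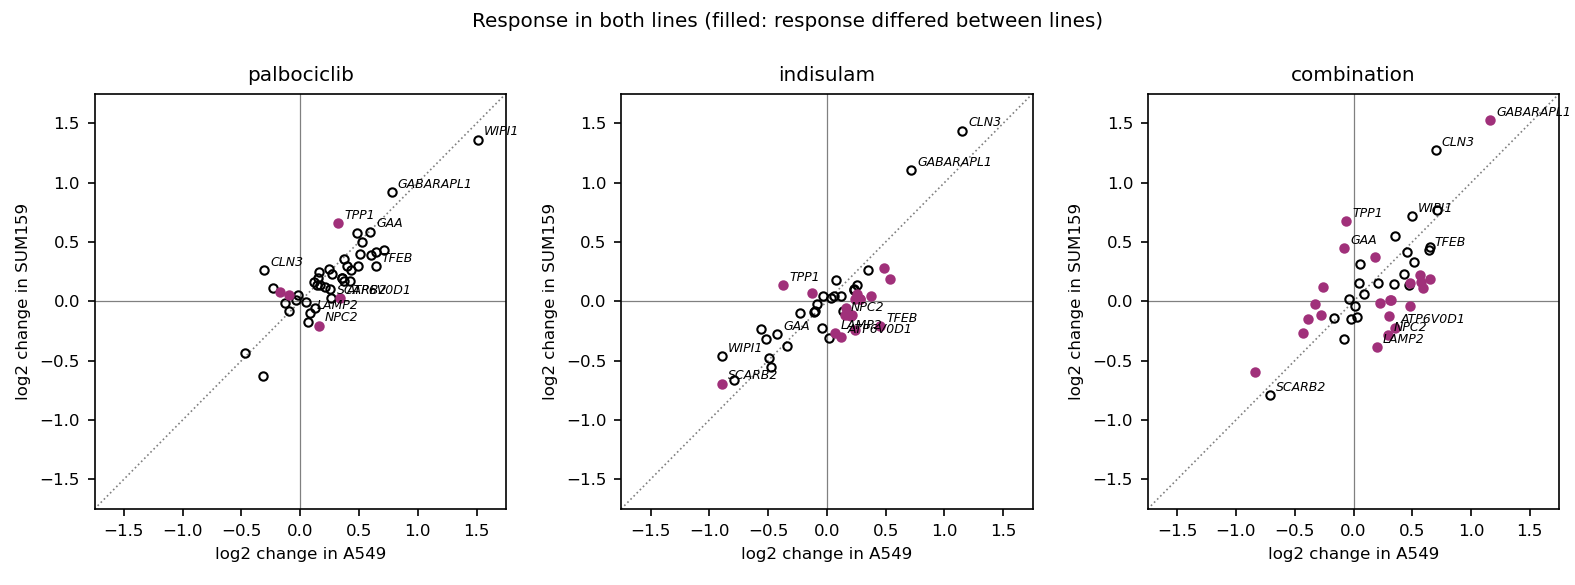
Log2 change against untreated of each of the 45 genes in A549 (x axis) and SUM159 (y axis) with palbociclib, indisulam or the combination. Filled points are genes whose response differed between the lines (edgeR adjusted p under 0.05), and the dotted line marks equal change on the axes. The axes come from the fits of each line alone and the filling from the fit of all 16 libraries. Distance from the line therefore does not equal the tested difference, whose median over all genes was 0.082, 0.019 and 0.099 from left to right. The filled points number 5, 19 and 23 in the panels from left to right, with TPP1 above and LAMP2, NPC2 and ATP6V0D1 below the diagonal in the combination panel.

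Before treatment the lines already differed in most of these genes, 27 higher and 17 lower in SUM159, where 76.3% of all genes passed (38.3% higher and 38% lower). Per kilobase of exon, PSAP was the highest in both lines, at 218 ± 5.48 CPM per kb (SD, n = 2) in A549 and 151 ± 1.99 in SUM159, followed by CD63 at 179 ± 0.743 and 137 ± 2.37. SQSTM1 came next in A549, at 128 ± 3.60, and PPT1 in SUM159, at 63.2 ± 1.44. CTSH, at 0.561 ± 0.0289 in A549 and 0.143 ± 0.0240 in SUM159, and CLN3, at 0.0278 ± 0.00947 and 0.0294 ± 0.000145, were the lowest. TFEB was the next lowest in both, at 0.724 ± 0.0557 and 1.37 ± 0.0371. The largest line differences were those of SMPD1, 2.16 ± 0.10 (SE, edgeR adjusted p = 3.89e-16), and LAMP2, 2.09 ± 0.05 (SE, edgeR adjusted p = 1.07e-21), upward in SUM159 and of GABARAPL1, −2.50 ± 0.10 (SE, edgeR adjusted p = 8.34e-17), and CTSH, −2.10 ± 0.16 (SE, edgeR adjusted p = 1.46e-11), downward. GABARAPL1, at 31.2 and 30.2 CPM in untreated A549, was at 4.97 and 6.94 CPM in SUM159.

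The 9 genes with a promoter E-box were set beside the 24 whose promoter window lacked it. With palbociclib, 6 of 9 and 16 of 24 rose in A549 (66.7% of each), and 5 of 9 and 14 of 24 rose in SUM159 (55.6% and 58.3%). Falls numbered 0 of 9 and 3 of 24 in A549, and 0 of 9 and 4 of 24 in SUM159. Among all tested genes with a promoter entry, 19.3% of those with the E-box and 23.4% of those without it rose in A549, and 22.9% and 25.9% in SUM159. In the same order, 25.8% and 23.2% fell in A549, and 38.8% and 32.15% in SUM159. With indisulam 2 of 9 and 8 of 24 rose in A549, and 2 of 9 and 5 of 24 in SUM159. Falls were 1 of 9 and 8 of 24 in A549, and 3 of 9 and 7 of 24 in SUM159. Of all tested genes with and without the E-box, 25.4% and 23.8% rose in A549 and 21.6% and 22.1% in SUM159. The shares that fell were 27.3% and 27.6% in A549 and 29.7% and 27.7% in SUM159. These shares are a description and carry no test.

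A list of 147 other lysosome and autophagy genes was read in the same fits, where the shares of all genes that rose and fell were 22% and 21.1% under palbociclib in A549 and 25.5% and 29% in SUM159, 23.3% and 25.9% against 21.9% and 24.9% under indisulam, and 27.4% and 30.4% against 32.2% and 33.1% under both. Of 32 other lysosomal hydrolases, 19 rose and 5 fell under palbociclib in A549, against 19 and 7 in SUM159. With indisulam there were 6 higher and 11 lower in A549 against 6 and 11, the combination 11 and 11 against 16 and 9. Of 18 tested membrane and cofactor genes, 12 rose and none fell under palbociclib in A549, against 10 and none in SUM159. The indisulam libraries had 4 higher and 5 lower in A549 against 3 and 3, the combination 10 and 5 against 11 and 3. Of 12 genes that sort lysosomal enzymes, 2 rose and 5 fell under palbociclib in A549, against 2 and 3 in SUM159. Under indisulam alone there were 4 higher and 3 lower in A549 against 6 and 2, the combination 4 and 4 against 8 and 4. Of the other V-ATPase genes, 11 tested in A549 and 12 in SUM159, 4 rose and 1 fell under palbociclib in A549, against 6 and 2 in SUM159. Indisulam gave 4 higher and 1 lower in A549 against 1 and 1, the combination 5 and 2 against 5 and 1. Of 18 genes of autophagy initiation and nucleation, 8 rose and 2 fell under palbociclib in A549, against 6 and 4 in SUM159. Indisulam gave 11 higher and 3 lower in A549 against 8 and 3, the combination 10 and 3 against 6 and 4. Of 14 tested genes of ATG8 proteins and their conjugation, 5 rose and 1 fell under palbociclib in A549, against 3 and 4 in SUM159. Indisulam gave 3 higher and 3 lower in A549 against 3 and 5, the combination 4 and 4 against 4 and 5. Of 15 autophagy receptor and fusion genes, 9 rose and 1 fell under palbociclib in A549, against 7 and 2 in SUM159. Indisulam gave 6 higher and 1 lower in A549 against 4 and 2, the combination 12 and 1 against 10 and 3.

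Of 21 tested genes of TFEB control and mTORC1 at the lysosome, 5 rose and 5 fell under palbociclib in A549, against 5 and 5 in SUM159. Indisulam gave 7 higher and 4 lower in A549 against 4 and 6, the combination 8 and 8 against 5 and 5. MTOR, the kinase of that complex, was at 77.6 and 81.5 CPM in untreated A549 and 31.3 and 32.7 CPM in the combination, and at 113 and 124 CPM and then 67.0 and 59.5 CPM in SUM159. The log2 change was −1.31 ± 0.05 (SE; edgeR adjusted p = 4.31e-11) in A549 and −0.91 ± 0.06 (SE; edgeR adjusted p = 2.9e-10) in SUM159. RRAGB, a Rag GTPase that recruits mTORC1 to the lysosome, went from 8.89 and 8.12 CPM to 41.1 and 39.4 CPM in A549 and from 9.55 and 9.48 CPM to 36.7 and 40.0 CPM in SUM159, log2 changes of 2.24 ± 0.08 (SE; edgeR adjusted p = 1.2e-11) and 2.01 ± 0.08 (SE; edgeR adjusted p = 6.11e-13). All combination libraries lay apart from untreated for both genes. Their values with each drug alone are not given here. Over the genes of this list, indisulam alone gave −1.13 to 1.92 in A549 and −0.71 to 1.72 in SUM159. Palbociclib alone gave −0.47 to 0.43 and −0.49 to 0.80, and the combination against indisulam −0.29 to 0.45 and −0.45 to 0.29. AGA, a lysosomal amidase that cleaves sugars from asparagine, changed by −1.16 ± 0.11 (SE; edgeR adjusted p = 3.79e-07) in A549 and by −0.63 ± 0.11 (SE; edgeR adjusted p = 5.42e-05) in SUM159. FUCA1, the α-fucosidase, rose in A549 from 11.1 and 11.2 CPM to 20.7 and 19.3 CPM, and ULK1, the kinase that starts autophagy, rose in SUM159 from 19.2 and 18.2 CPM to 55.6 and 50.9 CPM.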

How the data were processed

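RNA-seq was performed on A549 and SUM159 cells in 16 libraries. Per the labels and methods, poly(A) RNA was prepared with a strand-specific kit and aligned with HISAT2 (version 2.2.1) to GRCh38. The authors deposited 1 file of raw counts per library, made with HTSeq and not normalized, with a row for each Ensembl gene. The HTSeq version, its strand setting and the annotation release are not given in the sources used here, so reads from overlapping genes may be unassigned or, without strand, shared. Rows that name no gene (13.2% to 16.4% of each file's total) were left out of library sizes and tests, and no column of another series was present. The 45 genes and the other lists were chosen with earlier results of these data known, and no list is evidence of its own direction.

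Symbols and exon lengths came from GENCODE release 44, which matched 58207 of 58676 identifiers and may differ from the release used for counting, and promoter sequences from RefSeq on GRCh38.p14. Counts were tested with the quasi-likelihood test of edgeR (version 4.0.16, R 4.3.3) after TMM scaling and its expression filter. Each line was fitted alone with its 8 libraries (15744 genes in A549, 16080 in SUM159), and the 16 libraries together (17764 genes) for differences between lines. Differences from the joint fit therefore do not equal those between the changes printed for each line. Benjamini-Hochberg adjustment ran over all tested genes, with a threshold of 0.05. Standard errors were derived from the F statistic. The scripts were tested on simulated data. Genes were named by rule: TFEB, TFE3, MITF and GLB1, in each comparison with untreated the 4 largest called rises and falls with a mean of at least 5 CPM, and those called in opposite directions in the lines; other genes named were chosen after their values were seen. Alternatives were DESeq2 (version 1.42.0), RLE and total-count scaling, no filter, at least 10 counts in every library, a fit of the compared libraries alone, a replicate block, and leaving out each library in turn. The 2 libraries of a group differed by more than counting noise in every group (chi-square per degree of freedom from 1.65 to 10.0), so each was used. Levels carry counting error and the spread of 2 libraries only.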

Additional observations from a re-analysis of the deposited data

Results flagged for a closer look

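7 differences in response between the lines (SUM159 minus A549, on the log2 scale, from a direct test over all 16 libraries) passed the threshold with a size of at least 0.5. With indisulam they were TFEB, −0.66 ± 0.22 (SE, edgeR adjusted p = 0.0465), and TPP1, 0.51 ± 0.09 (SE, edgeR adjusted p = 0.000574). The TFEB difference was lost under most alternatives, among them DESeq2 (−0.67, adjusted p = 0.0646), total-count scaling (−0.64, edgeR adjusted p = 0.0633), and leaving out any untreated or indisulam library, for which the edgeR adjusted p ran from 0.0545 to 0.179. The TPP1 difference kept its direction and an adjusted p under 0.05 in every alternative, at 0.437 to 0.548.

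With the combination they were TPP1, 0.80 ± 0.09 (SE, edgeR adjusted p = 4e-07), GAA, 0.60 ± 0.10 (SE, edgeR adjusted p = 3.74e-05), LAMP2, −0.52 ± 0.07 (SE, edgeR adjusted p = 4.75e-06), NPC2, −0.51 ± 0.09 (SE, edgeR adjusted p = 7.88e-05), and ATP6V0D1, −0.50 ± 0.07 (SE, edgeR adjusted p = 2.86e-06). These 5 kept their direction and an adjusted p under 0.05 in every alternative run, but not all kept a size of 0.5. The lowest sizes were 0.596 for TPP1, 0.333 for GAA (without A549 combination replicate 2), −0.467 for LAMP2, −0.468 for NPC2 and −0.497 for ATP6V0D1. TPP1 shares 11.6% of its exon length with another gene on its strand, and line and culture medium cannot be told apart.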

How the results depend on the processing

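The number of genes past the threshold stayed within 1.5 times its reported value in every alternative for all comparisons of treatments within a line and for the untreated lines. The departure from additivity did not: in A549 it was 0 genes with DESeq2 (of 2 by edgeR), 4 without a filter and 0 to 3 with 1 library left out, and in SUM159 3 without a filter, 2 with at least 10 counts in every library and 0 to 3 with 1 library left out. The palbociclib difference between lines was 10 genes with at least 10 counts in every library and 3 to 17 with 1 library left out, and the indisulam difference 9 to 19. The cause was not tested.

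Of 202 values of single genes under 3105 alternatives, 2895 kept direction and side of the threshold and 7 reversed: with the SUM159 combination, total-count scaling gave MITF 0.0233, GLB1 0.107 (past the threshold), LIPA 0.0064, CTSL 0.0184 and NPC1 0.0315, and the strict count filter gave GLB1 0.0013. In A549 with the combination, GLB1 ranged from −0.010 without combination replicate 2 to 0.0312 without replicate 1. Of the 193 values called, DESeq2 lost 26, total-count scaling 18 and the replicate block 5, and 45 were lost without at least 1 of the libraries.

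Replicate numbers 1 and 2 are shared by all groups but no source pairs them. Deviations of same-numbered libraries correlated between −0.114 and 0.114 over the 10 comparisons within a line. With the number as a block, the genes called were 32, 27 and 34 in A549 and 30, 24 and 31 in SUM159 for palbociclib, indisulam and the combination against untreated, and 4, 17 and 22 for the differences between lines. Crossing the numbers, an alternative added after seeing the data, gave 27 genes in A549 and 29 in SUM159 for the combination against palbociclib, where the block gave 27 in each. CLN3 had under 1 CPM and shares 25.3% of its exon length with another gene on its strand. The cause of its low count was not tested.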
